A study of Mus musculus with 15 samples.

Results

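The H3K4me3 ChIP-seq peak lists of control and Pax6 knockdown (KD) αTN4 cells were compared across the genome, promoter by promoter and peak by peak, whether or not Pax6 was bound nearby. αTN4 cells are mouse lens epithelial cells immortalised by SV40 T antigen. Both populations carry a lentiviral shRNA, a control one or one against Pax6, and were kept as pooled, puromycin-selected stable lines, so the controls share the virus and the selection with the KD cells. The KD cells express the construct named sh2 in the study's methods, against Pax6, the transcription factor that directs lens and eye development. All regions of both H3K4me3 lists were taken as members, which were 14869 control peaks and 14301 KD peaks, or 29170 of the 291642 regions of all the lists analysed here. These came from 2 of the 15 samples of the series, with 1 library a side and the same antibody lot.

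Histone H3 trimethylated at lysine 4 marks the start sites of active and poised genes, where complexes of the Set1 and Mll methyltransferases place it. CpG-rich promoters carry it broadly, and its height and width tend to follow promoter activity. Interferon-stimulated genes, which are named often below, are switched on by a complex that includes Stat2 and Irf9, and many of them hold a short GAAA repeat before the start site that this complex binds.

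H3K4me3 was called over nearly all of the same promoters in Pax6 KD cells as in control cells. A peak within 2 kb of a start of a protein-coding gene was found at 10968 of 22342 genes in control cells and at 10672 in KD cells, and 10619 genes had one in both. The promoter peaks without a KD counterpart were mostly weak. Interferon-stimulated genes such as Apol9a, Xaf1, Isg15, Ifit1, Ifi27l2a and Oas1g stood among those with more H3K4me3 in KD cells. With 1 library a side no difference has a replicate check, no p-value is given, and the confidence intervals cover counting error only.

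Before the values, 4 interferon-stimulated promoters with higher H3K4me3 in KD cells are shown as the 200 bases before the start site, read 5′ to 3′ on the strand of the gene from the mm9 genome (NCBIM37). Capitals mark GAAANNGAAA or its reverse complement TTTCNNTTTC, the core of the interferon-stimulated response element. The windows are chr4:155574928-155575127 (minus strand) for Isg15, a ubiquitin-like protein, chr6:121195724-121195923 (plus) for Usp18, which removes Isg15 from proteins, and chr11:58012858-58013057 (plus) for Igtp, an immunity-related GTPase. The window of Apol9a, an apolipoprotein L, is chr15:77241484-77241683 (minus).
Isg15: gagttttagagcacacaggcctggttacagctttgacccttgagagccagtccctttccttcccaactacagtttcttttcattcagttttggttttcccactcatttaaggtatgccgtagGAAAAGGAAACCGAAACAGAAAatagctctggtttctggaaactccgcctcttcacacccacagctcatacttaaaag
Usp18: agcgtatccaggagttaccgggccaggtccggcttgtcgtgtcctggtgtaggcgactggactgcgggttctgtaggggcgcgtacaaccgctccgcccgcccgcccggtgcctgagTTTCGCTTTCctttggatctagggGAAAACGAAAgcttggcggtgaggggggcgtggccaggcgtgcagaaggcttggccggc
Igtp: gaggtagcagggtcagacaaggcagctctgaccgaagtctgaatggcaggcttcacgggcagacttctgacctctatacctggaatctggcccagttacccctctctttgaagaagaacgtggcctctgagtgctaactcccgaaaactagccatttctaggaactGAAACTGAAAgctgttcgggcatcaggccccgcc
Apol9a: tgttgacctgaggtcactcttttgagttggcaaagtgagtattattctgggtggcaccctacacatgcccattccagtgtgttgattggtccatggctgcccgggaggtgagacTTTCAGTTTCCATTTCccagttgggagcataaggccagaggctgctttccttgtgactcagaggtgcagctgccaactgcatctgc
Isg15 held 3 overlapping matches, Usp18 held 2, Apol9a held 2 that overlap and Igtp held 1. These 4 were chosen for display from promoters that hold a match. Of other genes named below for a rise or gain, Apol9b, Ifit1, Lgals9 and Oas1g held 2 matches each. Xaf1, Parp10, Samd9l, Mx2, Ifi27l2a and Oasl2 held none. The windows hold 3 CG pairs in Isg15, 19 in Usp18, 6 in Igtp and 1 in Apol9a.

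The lists were of similar size but came from libraries of unequal background. Control peaks had a median width of 867 bp and covered 14.4 Mb, and KD peaks had a median width of 834 bp and covered 13.2 Mb, or 92.1% of the control length. In both, most peaks lay within 2 kb of a protein-coding start site (called TSS peaks), with 13384 of 14869 in control and 13096 of 14301 in KD. Peak lists give no total of sequenced reads. The fold enrichment and the p of a MACS2 peak together fix the number of reads stacked at its summit and the background there, and whole reads were recovered for all 14869 control peaks and all 14301 KD peaks, to within 0.001 of the −log10 p. The genome-wide background was 1.65 reads in the control library and 3.05 reads in the KD library. The median summit held 48 reads in control and 55 in KD, which is 29.1 and 18.03 times the background, so the KD library was the less enriched one. The lowest summit called at the genome-wide background held 9 reads in control and 14 in KD. This gap in background moves with every loss described next, and its part in them was not tested.

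In all, 89.9% of control peaks were overlapped by a KD peak and 97.3% of KD peaks by a control peak. TSS peaks were kept more often than peaks elsewhere. Of the control TSS peaks, 12283 of 13384 were kept (91.8%, 95% Wilson interval 91.3 to 92.2), and of the others 1079 of 1485 (72.7%, 70.3 to 74.9), a difference of 19.1 percentage points (16.9 to 21.5). From the KD side, 12815 of 13096 TSS peaks had a control peak (97.9%, 97.6 to 98.1) and 1107 of 1205 others (91.9%, 90.2 to 93.3). Peaks inside genes but away from any annotated start were kept least, 187 of 313 (59.7%, 54.2 to 65.0), beside 555 of 744 between genes (74.6%, 71.3 to 77.6) and 337 of 428 at starts of other annotated transcripts (78.7%, 74.6 to 82.4).

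Kept and absent peaks differed in strength. Control peaks without a KD peak had a median summit of 16 reads and a median width of 305 bp, while kept peaks had 53 reads and 933 bp. Among control peaks of 13 to 15 summit reads, 42.5% of TSS peaks and 32.9% of others were kept. At 20 to 24 reads these shares were 81.5% (78.9 to 83.9) and 76.7% (70.7 to 81.9), with overlapping intervals, and at 25 to 29 reads 96.1% and 95.2%. Above the 40th percentile of control fold enrichment all 8516 TSS peaks and all 357 others were kept. Of the 1507 absent peaks, 181 would have stood below 14 reads in KD cells had they followed the median pair, and so would 103 of the 13362 kept ones. This cut takes no account of counting error, and the part of detection in the losses was not tested. Of the absent peaks, 82 had 25 or more control reads, of which 42 lay where the control background was under 2 times the genome-wide one.

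**Figure D1:**
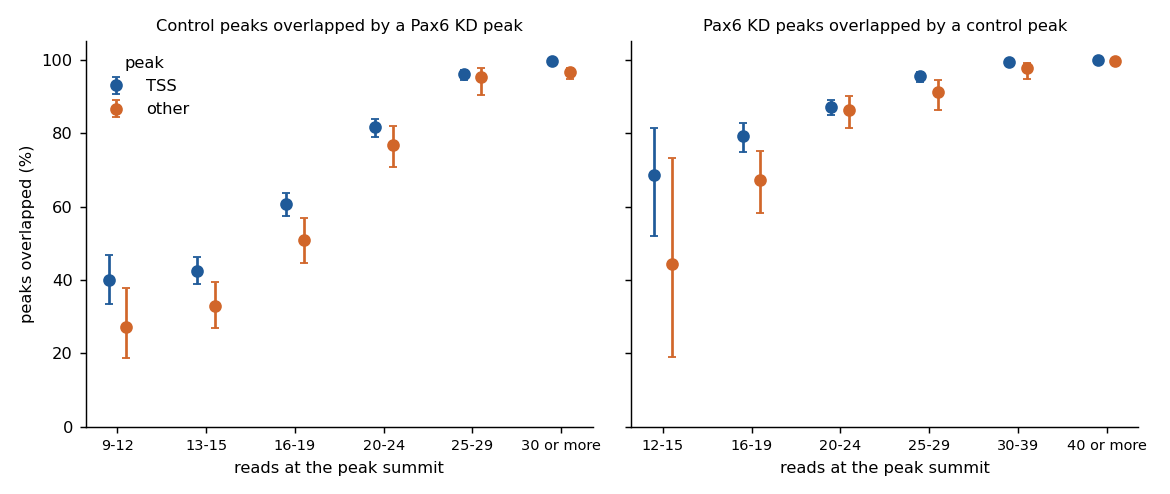
Share of H3K4me3 peaks overlapped by a peak of the other list (y axis, %) by the number of reads at the summit (x axis), for TSS peaks and other peaks, with 95% Wilson intervals of the counts. In the control panel both sets climb from below 50% at 15 or fewer control reads to over 95% at 25 or more.

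Most absent TSS peaks lay beside promoters that were marked in both lists. Of 1101 control TSS peaks without a KD peak, 757 (68.8%) lay at a gene with another peak in KD cells, and 700 had a KD peak within 1 kb. The start site lay inside 16.3% of the absent peaks but inside 58.1% of the kept ones. Of 281 TSS peaks found only in KD cells, 219 lay within 1 kb of a control peak, and 9.96% held the start site. Gains and losses were therefore counted per gene.

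Of 10968 genes with a control peak, 349 lost it (3.18% of genes, 95% Wilson interval 2.87 to 3.53), and these rest on 325 distinct peaks. Of the 11374 genes with no control peak, 53 gained one (0.466%, 0.356 to 0.609). The control peaks of 345 of the 349 overlapped no KD peak at all. Lost promoters had a median of 16 summit reads (quartiles 14 and 19) over 362 bp, where genes marked in both had a median of 65 reads (46 and 87) over 1336 bp. Gained promoters had a median of 22 KD reads (19 and 25) over 331 bp, against 70 reads over 1250 bp for genes marked in both.

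The 15 lost promoter peaks of highest fold enrichment held 24 to 75 reads. Others held more reads over a higher local background, up to 447 at a lost gene, and 31 of the 349 had 25 or more. Tmub1, which tops this order with 75 reads, is a case of the window edge, since its control peak overlapped a KD peak that ended outside the 2 kb. Hoxc8, a homeobox gene of axial patterning, had 31 reads over 396 bp and Abcg4, a sterol transporter, 29 reads over 727 bp. Nxph4, a neurexophilin, and Arhgef4, a guanine nucleotide exchange factor, had 27 reads each. Apart from Tmub1, all of these lay below the median of 65 reads of genes marked in both lists, and each was empty in the KD list.

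Cd46, a complement regulator, Slc37a1, a sugar phosphate exchanger, the Wnt inhibitor gene Apcdd1 and Tmem29 had 28 control reads each, and Slain1, a microtubule plus-end protein, had 25. The predicted genes Gm10116 (31 reads), Gm13272 (29), Gm11008 (25) and Gm9746 (24) were also among the 15. RNA polymerase II (Pol2) had a control peak at 9 of these 15 promoters, and H3K4me2 had a peak at 13 in control and at 13 in KD cells. None of the 15 had a control Pax6 peak within 50 kb of the gene, where 4.58% of genes marked in both lists had one.

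The gained promoter of highest fold enrichment was that of Ifi27l2a, an interferon-induced membrane protein, with no control peak and 36 KD reads over 504 bp. Oasl2 and Oas1g, of the 2′-5′ oligoadenylate synthetase family that senses viral double-stranded RNA, came next among known antiviral genes, with 47 KD reads over 1017 bp and 28 over 528 bp, and neither had a control peak. Inpp5j, an inositol phosphatase, had 32 reads and Zmynd8, a chromatin reader, 28. Gstt2, a glutathione transferase (33 reads), was again an edge case whose KD peak overlapped a control peak.

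Mnd1, of meiotic recombination, and Sardh, sarcosine dehydrogenase, had 25 KD reads each, and Hoxb4 and Fcgrt, the neonatal Fc receptor, 24 each. The uncharacterized genes Gm5900 (27 reads), E130311K13Rik (26), 4930455F23Rik (24), G630090E17Rik (24) and Gm6505 (23) complete the 15. Pol2 had a control peak at 12 of these 15 promoters, and 2, Oasl2 and 4930455F23Rik, had a Pax6 peak within 50 kb. Of genes marked in both lists, 4.58% had such a Pax6 peak. Lower in the order stood further interferon-induced genes, Oas1a (21 reads), Ifi204 (20), a DNA sensor, and Ly6e (16), picked here after their values were seen. With them came Vcam1, an adhesion molecule (19), Tgm2, a transglutaminase (22), and the lens and heart connexin gene Gja1 (22).

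Lost and gained promoters were unlike in base composition. A single start per gene was read, the one nearest the middle of its strongest peak. Genes marked in neither have no peak, so their first start by position was taken. The CpG ratio (observed over expected, 500 bases either side of the start) had a median of 0.64 at lost promoters (quartiles 0.47 and 0.75) and 0.63 at genes that kept a control peak of under 25 reads. At gained promoters the median was 0.37 (0.26 and 0.56), below the 0.66 of genes marked in both with under 25 KD reads and near the 0.24 of genes marked in neither. A ratio over 0.6 was found at 58.5% of lost, 18.9% of gained and 81.7% of promoters marked in both.

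Other marks were present at many lost and gained promoters. Pol2 had a control peak within 2 kb at 161 of 349 lost genes (46.1%, 95% Wilson interval 41.0 to 51.4), at 34 of 53 gained genes (64.2%, 50.7 to 75.7) and at 96.0% of genes marked in both, against 2.91% of genes marked in neither. H3K4me2, from libraries of its own, had a peak at 92.6% of lost promoters in control and 96.3% in KD cells. These shares were 86.8% and 88.7% at gained genes, 99.9% and 99.9% at genes marked in both, and 17.9% and 15.6% at genes marked in neither. The lower methylation state was thus called at most promoters whose H3K4me3 peak was absent, though less often than at genes marked in both. Among weak TSS peaks alone, the weakest 20% by fold, Pol2 lay under 60.9% (57.8 to 63.9) of absent and 76.2% (73.8 to 78.5) of kept ones. A control Pax6 peak within 50 kb was found for 13 of 349 lost genes (3.72%, 2.19 to 6.27), 2 of 53 gained (3.77%, 1.04 to 12.8) and 4.58% (4.20 to 4.99) of genes marked in both, with overlapping intervals.

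The level of H3K4me2 was compared at the same genes. Its fold enrichment, as log2 of KD over control relative to the median gene, had a median of −0.14 at the 322 lost genes with a peak in both H3K4me2 lists (quartiles −0.36 and 0.07) and was above 0 at 35.1% of them, against 0.02 and 52.8% for genes that kept H3K4me3. At gained genes the median was 0.01, with quartiles of −0.33 and 0.32. At Ifi27l2a an H3K4me2 peak was likewise called only in KD cells, and at Oas1g and Oas1a H3K4me2 was 0.68 higher. At Inpp5j it was 0.46 lower and at Oasl2 0.11 higher.

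Peaks present in both lists allow finer comparison, and 12115 pairs overlapped 1 to 1, of which 11143 were TSS pairs and 972 others. A further 786 control peaks overlapped more than 1 KD peak and 243 KD peaks more than 1 control peak. Paired peaks were slightly narrower in KD cells. The median log2 width ratio was −0.07 for TSS pairs (quartiles −0.21 and 0.06) and −0.11 for others (−0.36 and 0.06), and 7112 of 11143 TSS pairs and 654 of 972 others were narrower. By 1.5-fold or more, 536 TSS pairs were narrower (4.81%) and 152 wider (1.36%), and 125 others were narrower (12.9%) and 25 wider (2.57%).

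**Figure D2:**
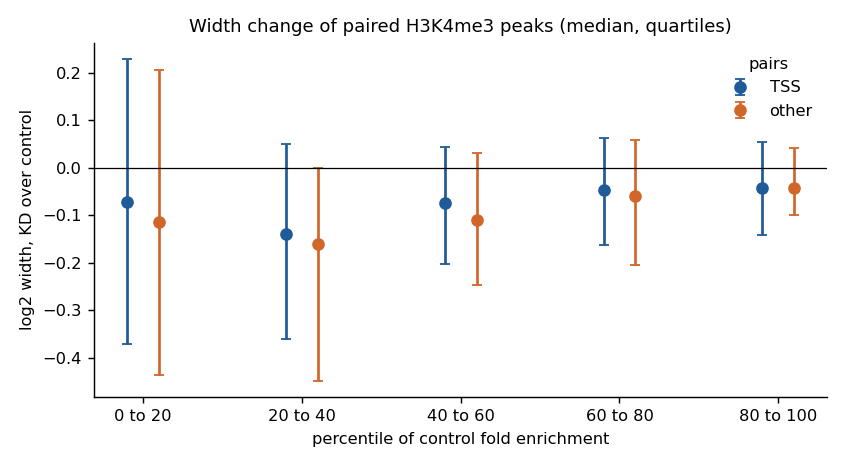
Log2 of KD over control width (y axis) for 1 to 1 pairs in quintiles of control fold enrichment (x axis), as median with quartile bars, for TSS pairs and others. The quartiles span from −0.37 to 0.23 in the weakest quintile of TSS pairs and from −0.14 to 0.05 in the strongest.

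The median width ratio was below 0 in every quintile of strength. In the strongest quintile of TSS pairs the median width was 1312 bp in control and 1258 bp in KD cells, and in the second weakest 620 and 553 bp. Where the start site lay inside the control peak, the KD peak ended a median of 29 bp short on the upstream side (quartiles 65 short and 1 beyond) and 11 bp short on the downstream side (75 short and 50 beyond), over 6358 pairs. In the strongest quintile the median log2 width ratio was −0.04 for both TSS and other pairs.

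Among 5701 TSS pairs above the median fold in both lists, 59 were narrower and 18 wider by 1.5-fold. Anapc5, a subunit of the anaphase-promoting complex, went from 1433 to 543 bp, with 50 summit reads in control and 60 in KD. Psmf1, a proteasome inhibitor subunit, went from 1732 to 953 bp with 129 and 120 reads, and H2afz, the histone variant H2A.Z, from 1204 to 661 bp with 94 and 91 reads. Bms1, of ribosome biogenesis, went from 1310 to 699 bp and Cblb, a ubiquitin ligase, from 1542 to 838 bp. Zfp953, Igbp1, Tnfrsf10b, Rfx5 and Mrps26 complete the 10 narrowest, with widths in KD cells of 450 to 873 bp.

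In the other direction Nacc1, a BTB domain transcription regulator, went from 412 to 977 bp with 57 and 55 summit reads, and Bcdin3d, an RNA methyltransferase, from 599 to 1221 bp with 87 and 78 reads. Ccrn4l, the rhythmic deadenylase nocturnin, went from 966 to 1841 bp and Btg2, an antiproliferative p53 target, from 756 to 1196 bp with 61 and 87 reads. Ston1, AW209491, Homez, Urgcp, Lysmd4 and Xrcc6bp1 complete the 10 widest. At all 20 of these promoters the width differed by 1.5-fold or more while the relative summit reads differed by less than 1.5-fold. Nearly all strong pairs differed that little in reads. Of the 8975 TSS pairs with at least 30 control reads, 61 were higher and 149 lower by 1.5-fold.

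By rank of fold enrichment within each list, the median change was −1.998 percentiles at TSSs (quartiles −9.40 and 4.16) and −3.38 elsewhere (−10.7 and 3.28). The lists differ in length, with more unpaired weak peaks in control, and ranked among the paired peaks alone the median change was −0.05 at TSSs (95% interval −0.24 to 0.11) and −0.27 elsewhere (−0.98 to 0.28). Summit reads were higher in KD by a median factor of 1.08 at 1 to 1 pairs, so differences of single pairs are given as log2 of KD over control reads relative to that median. On this scale the median of TSS pairs was −0.00358 (quartiles −0.17 and 0.18) and that of others 0.04 (−0.17 and 0.26). Of other pairs, 66 (6.79%) were higher and 26 (2.67%) lower by 1.5-fold. Of TSS pairs, 353 (3.17%) were higher and 176 (1.58%) lower by 1.5-fold, and 43 (0.386%) were higher and 7 (0.0628%) lower by 2-fold. A weak control peak entered a pair only where KD called it too, and the median was 0.35 in the weakest quintile of TSS pairs and −0.09 in the strongest.

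**Figure D3:**
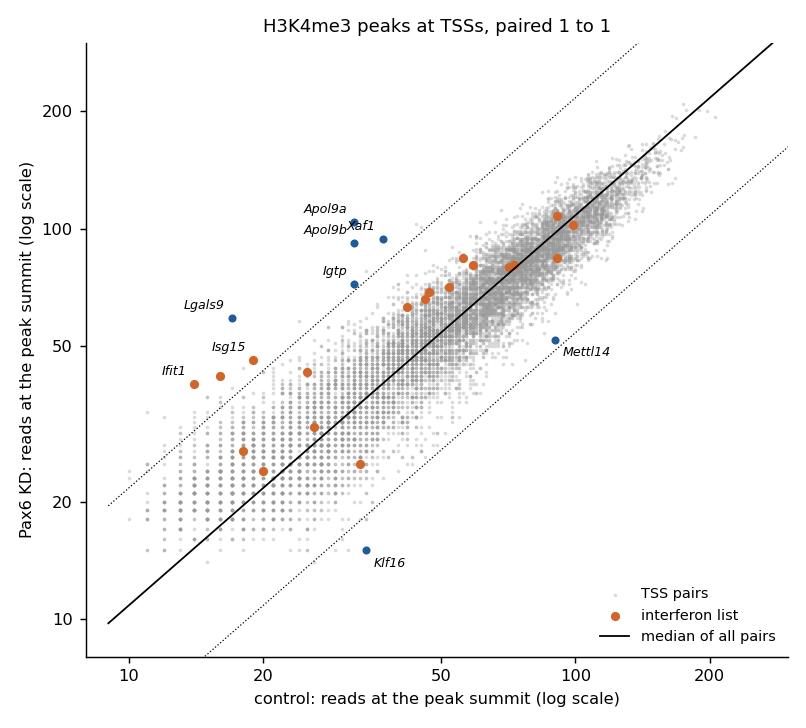
Reads at the summit of H3K4me3 TSS peaks paired 1 to 1, control (x axis) against KD (y axis), both on log scales. The solid line is the median of all pairs, dotted lines lie 2-fold to either side of it, orange points are pairs at genes of the interferon list and blue points are other genes named in the text. Apol9a, Apol9b, Xaf1 and Igtp stand above the 2-fold line at 32 to 37 control reads.

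Among the 8975 TSS pairs with at least 30 control reads, 61 were higher and 149 lower by 1.5-fold, and 8 were higher and 5 lower by 2-fold. The order of this group was drawn up after the values were seen. Apol9a went from 32 to 104 reads (1.58, 95% counting interval 1.00 to 2.20) and its relative Apol9b from 32 to 92 (1.41, 0.81 to 2.04), and the Apol9b peak went from 905 to 1970 bp. The Apol9 genes are near copies, so reads may be shared between them. Xaf1, a proapoptotic interferon-induced gene, went from 37 to 94 (1.23, 0.67 to 1.82) and Igtp from 32 to 72 (1.05, 0.43 to 1.703). Parp10, a mono-ADP-ribosyltransferase, went from 46 to 88 (0.82, 0.29 to 1.37). These 5, known as interferon-induced genes, are set apart here from the rest of the largest increases and are not the top 5. Cp (1.11), Srprb (1.08), Pkdcc (1.05) and Samd9l (1.03), given next, rose more than Parp10.

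Of the rest of the 10, Cp, the copper carrier ceruloplasmin, went from 44 to 103 reads and Samd9l, an antiviral factor, from 32 to 71. The local background went from 2.45 to 10.2 reads at Cp and from 4.89 to 13.2 at Samd9l, and their percentile of fold enrichment went from 37.0 to 31.9 and from 6.48 to 6.04, not upward. Srprb, of the signal recognition particle receptor, went from 34 to 78, Pkdcc, a secreted kinase, from 45 to 101 and Pip5k1a, a lipid kinase, from 31 to 58. A further promoter peak had 38 and 51 reads at Pkdcc and 152 and 145 at Pip5k1a. Among pairs with fewer control reads, the largest increases included Lgals9, a galectin induced by interferon (17 to 59 reads, 1.68, 0.88 to 2.55), Ifit1, which binds uncapped viral RNA (14 to 40), and Isg15 (19 to 46), and a small peak beside Psmb9, an immunoproteasome subunit (16 to 42). Of the 20 TSS pairs with the largest increase, 16 had under 30 control reads and 18 were also wider in KD cells.

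Genes of the interferon list had 19 of the 11143 TSS pairs, 3 of the 20 with the largest increase and 0 of the 20 with the largest decrease. At so small a share of all pairs, a count of 0 in 20 says little. Klf16, a Krüppel-like factor, went from 34 to 15 reads (−1.30, −2.28 to −0.38), Neurl1a, a ubiquitin ligase, from 31 to 15, and Pan3, a deadenylase subunit, from 34 to 18. Mettl14, of the RNA methyltransferase for N6-adenosine, was the strongest peak among the 20 lowest, with 90 and 52 reads (−0.91, −1.43 to −0.40) at nearly the same width, 1493 and 1483 bp. Adam12, a metalloprotease, went from 49 to 28 and Lhx4, a LIM homeobox gene, from 42 to 25. A further promoter peak had 70 and 66 reads at Klf16, 28 and 47 at Neurl1a and 47 and 62 at Pan3, so the decrease there was of 1 peak of several.

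For the gene lists, the highest summit within 2 kb of a start and the total covered length were compared per gene, so that split peaks count once. Lengths of list genes below are covered lengths unless a peak is named. A covered length also falls where 1 of several peaks is not called. Over the 10619 genes marked in both, 188 were higher (1.77%) and 103 lower (0.97%) in summit reads by 1.5-fold, and covered length was up at 110 (1.04%) and down at 599 (5.64%). These are the shares against which each list is read. Of the lists with at least 3 genes marked in both, the interferon list had the highest median in summit reads. Of its 30 genes 20 had a control peak, 19 kept it, and 5 of the 19 were higher by 1.5-fold and none lower. Its median was 0.37 in summit reads and 0.25 in log2 covered length, where the median of all genes was 0 and −0.08, and 16 of 19 were above 0 in reads and 17 of 19 in covered length, against 5305 and 3477 of 10619 genes.

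**Figure D4:**
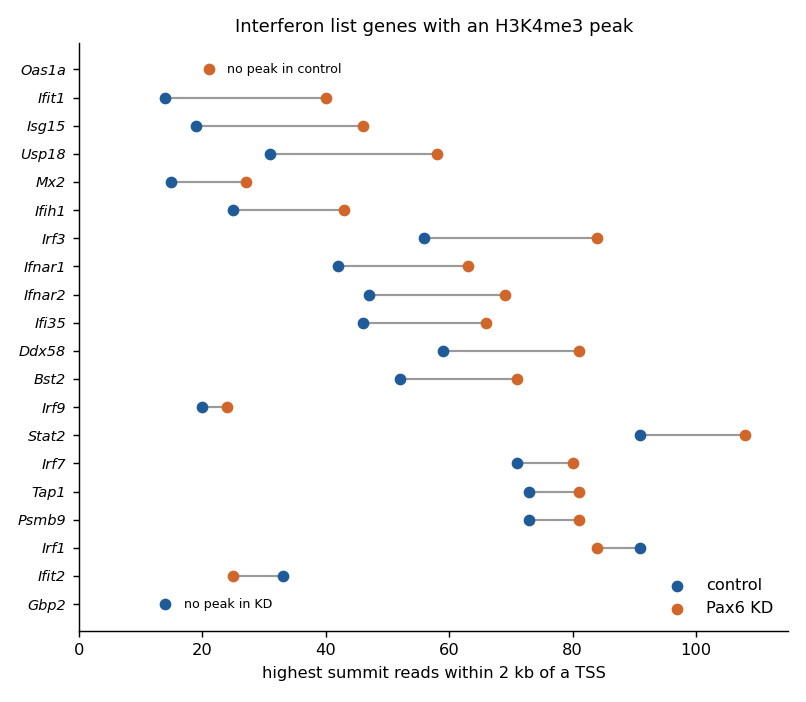
Highest H3K4me3 summit reads within 2 kb of a start site (x axis) in control and Pax6 KD cells for 20 genes of the interferon list with a peak in either (y axis, ordered by relative change). KD points lie to the right of control points at 16 of the 18 drawn genes with both.

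The largest increases of the list were at Ifit1, Isg15, Usp18, Mx2 and Ifih1. Ifit1 went from 14 to 40 reads (1.42, 95% counting interval 0.52 to 2.42) and from 540 to 992 bp, Isg15 from 19 to 46 reads (1.19, 0.39 to 2.04), Usp18 from 31 to 58 reads (0.81, 0.16 to 1.49) and from 1349 to 2459 bp, and Ifih1, the RNA sensor Mda5, from 25 to 43 reads (0.69, −0.05 to 1.47). Mx2, a dynamin-like antiviral GTPase, went from 15 to 27 reads, with its control peak of 226 bp and its KD peak of 1465 bp lying apart in the window. Oas1a had no control peak and 21 KD reads.

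The other members with both peaks lay between −0.49 and 0.50. Among genes of transcription factors, Stat2 had 91 and 108 reads (0.16, −0.26 to 0.58), Irf9 20 and 24, Irf7 71 and 80 and Irf1 91 and 84. The receptor genes Ifnar1 (42 and 63 reads, 0.50) and Ifnar2 (47 and 69, 0.46), Irf3 (56 and 84, 0.50), Ifi35 (46 and 66, 0.43), Bst2, which tethers virions (52 and 71, 0.36), and Ddx58, the RNA sensor Rig-I (59 and 81, 0.37), lay above the median with intervals that include 0. At Bst2 the local background went from 1.65 to 6.09 reads and the percentile of fold enrichment went from 57.4 to 36.3, and at Irf9 it went from 19.2 to 14.5. Exceptions in the list were Ifit2 (33 and 25 reads) and Gbp2, a guanylate-binding protein, whose control peak of 14 reads was absent in KD cells. Tap1 and Psmb9 share 1 promoter (73 and 81 reads). Ifit3, Oas2, Oas3, Mx1, Rsad2, Ifi44, Psmb8, Irf5 and Ifnb1 had no peak in either list.

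The list was also read in separate ranges of strength, chosen after its values were seen. Among the 14 genes with at least 30 control reads the median in summit reads relative to genes of that range was 0.27, with 11 above 0, and among the 5 with fewer reads it was 0.56, with 4 above 0. H3K4me2, from separate libraries of the same cells, had a median of 0.15 in log2 fold over the 29 list genes with a peak in both and 20 of 29 above 0, where the median of all genes was 0 and 6329 of 12661 were above it. At Isg15 it was higher by 0.13 per gene but lower by 0.36 at the paired peak itself. Outside the list it was higher by 1.14 at Apol9a and by 0.97 at Xaf1 but by 0.13 at Lgals9. Of the 20 TSS pairs with the largest increase in H3K4me3, 17 had an H3K4me2 pair, and 8 of these were above 0 (median −0.04), beside 5009 of 9037 over all TSS pairs (median 0.04). The housekeeping list, too, had an H3K4me2 median of 0.26, with an H3K4me3 median of 0.01.

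The response element core was counted at the same single start of every gene, which for genes without a peak was not chosen by a peak. In the 200 bases before the start, GAAANNGAAA on either strand was found at 594 of 22342 genes (2.66%), at 12 of the 31 gene records of the interferon list (38.7%), at 23 of the 188 genes whose summit was higher by 1.5-fold (12.2%) and at 1 of the 103 whose summit was lower (0.97%). It was found at 10 of 349 lost promoters (2.87%) and at 4 of 53 gained (7.55%), among them Oas1g and Oas1a with 2 matches each. Among genes marked in both with under 25 control reads, the share was 3.94%. Xaf1, Parp10, Samd9l, Mx2, Ifi27l2a and Oasl2 held no match in this window. The CpG ratio was 0.15 at Apol9a and 0.14 at Xaf1.

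**Figure D5:**
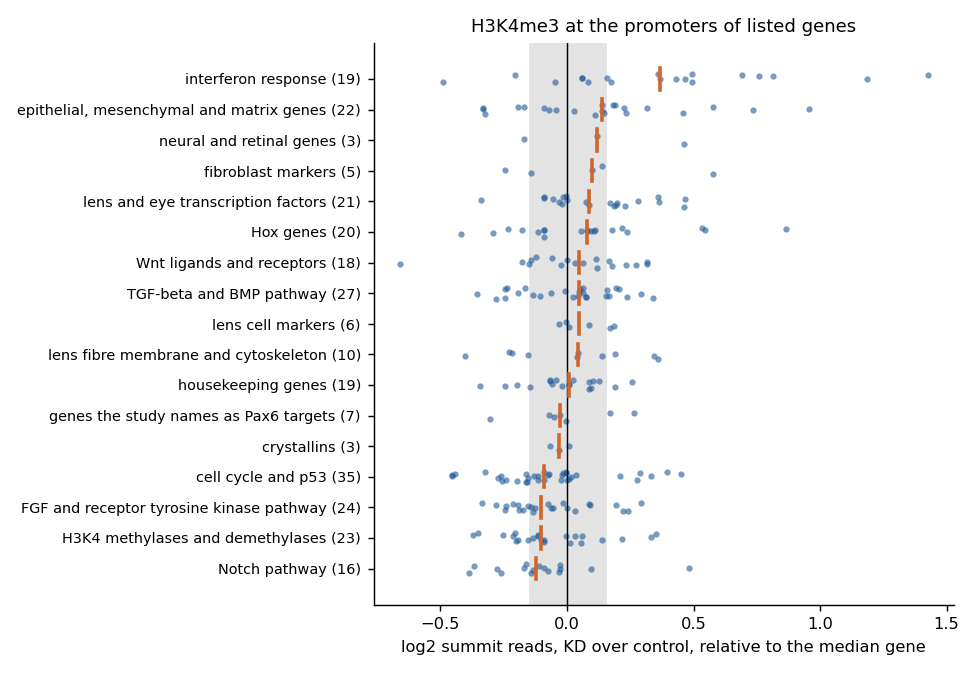
Log2 of KD over control summit reads per gene, relative to the median gene (x axis), for each gene list with at least 3 genes marked in both (y axis, number of genes in brackets). Points are genes, orange bars are list medians and the grey band runs between the quartiles of all genes, from −0.15 to 0.15. The interferon list is the only one whose median lies outside the band.

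The lens lists lay near the median gene. Of 21 lens and eye transcription factor genes with a control peak, 21 kept it, and none differed by 1.5-fold in summit reads (median 0.09). Pax6 itself, whose mRNA the shRNA targets, had 92 control and 110 KD reads at its highest summit and 12504 and 12457 bp covered by the peaks of its several starts, values that do not check the knockdown of the mRNA. Sox2, a partner of Pax6, had 88 and 90 reads but spread from 3044 to 4889 bp, Mab21l1 from 2465 to 4122 bp and Hsf4, the lens heat shock factor, from 259 to 687 bp. Rarb, a retinoic acid receptor, went from 712 to 422 bp. Among 19 crystallin genes 4 had a control peak, and Cryaa, the alpha A chain, had 71 and 76 reads with 886 bp covered in control and 1760 bp in KD cells. Cryl1, a crystallin by sequence, lost a peak of 15 reads. Of lens fibre genes 10 of 24 were marked, and Gja1 gained a peak while Hspb1, a small heat shock protein, went from 1075 to 651 bp.

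Of the 10 genes that the study names as responsive to Pax6, 8 were marked. Cap2, an actin-binding protein, had 2 control peaks with up to 19 reads and none in KD cells. H3K4me2 enrichment was lower there too, at 18.9-fold over background in control and 13.9-fold in KD. Zfp536, a zinc finger gene, had 36 and 31 reads and went from 3309 to 1699 bp. The other marked ones were Pax6 and 5 genes within 0.27 of the median gene, with Plekha1 at 77 and 79 reads, Farp1 at 75 and 76, Prox1 at 66 and 70, Tshz2 at 69 and 72 and Csf1 at 93 and 119. The study, from its ChIP-seq signal tracks, reports reduced H3K4me3 at the Plekha1 promoter in KD cells. The measures here are unlike that one and show no such drop in summit reads. The covered length at Plekha1 was 1838 bp in control and 1892 bp in KD, and its percentile of fold enrichment went from 81.3 to 77.7. Dhrs3 and Eya4 had no promoter peak in either list. The study gives Csf1, Dhrs3 and Eya4 as raised in mRNA on Pax6 depletion and the others as lowered. It chose the lowered ones as bound by Pax6 and changed in mRNA in its KD lines, so their direction is not independent evidence.

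Of the enzymes that write or erase H3K4 methylation, all 23 matched genes kept their peak and none differed by 1.5-fold in reads or covered length (median −0.10 in reads). Losses in the developmental lists were of weak peaks. Hoxa9 (11 reads) and Hoxc8 (31) were lost and Hoxb4 (24 KD reads) was gained, while Hoxc5 went from 16 to 31 reads. In the same list the covered length was lower by 1.5-fold or more at Hoxb13, Hoxc4 and Hoxd8, the last with 2 control peaks and 1 KD peak. Among Wnt genes, the ligand Wnt16 lost 2 peaks of up to 25 reads, and Wnt7a went from 49 to 33 reads (−0.66, −1.34 to 0.01). The ligand gene Wnt10a went from 1694 to 3374 bp. Covered length fell from 2000 to 1072 bp at Wnt9a, which had 3 control peaks and 1 KD peak. At the receptor gene Fzd5 it fell from 2048 to 1299 bp.

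In the TGF-beta and BMP list Inhba, the activin beta A subunit, lost a peak of 15 reads. Covered length was lower by 1.5-fold at 4 of 27 marked genes, Smad1, Smad9, Id2 and Fst. Smad1 had 2 control peaks and 1 KD peak, and Id2 and Fst had 3 and 2 each. Of the FGF list Fgf9, a ligand, went from 1059 bp in 3 peaks to 286 bp in 1, with 18 and 17 reads. Etv1 also had a shorter covered length. Among matrix and mesenchymal genes the laminin genes Lama1 (19 reads) and Lamb1 (17) lost their peak. Col6a1, a collagen VI chain, went from 15 to 31 reads (0.96, 0.02 to 1.95) with its percentile of fold enrichment at 6.05 and 7.84. Acta2, smooth muscle actin, went from 22 to 39 reads, and Zeb1, a mesenchymal repressor, from 1804 to 953 bp covered. In the Notch list covered length was lower by 1.5-fold at Dll1, Hes7 and Hey1 and higher at Notch3. Dll1 had 2 control peaks and 1 KD peak, and Hey1 had 3 and 2. In reads, 2 of 16 genes of this list lay above the median gene. Mycn (10 reads) and Mycl1 (13), of the Myc family, lost their peaks. Ccnd2, cyclin D2, and Mcm5, a replicative helicase subunit, had a shorter covered length. Eomes, a T-box gene, lost a peak of 13 reads, 1 of 4 marked neural and retinal genes. Of 19 marked housekeeping genes all kept their peak.

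Marker genes of cell types were checked against the label of the line. Of 12 lens markers 6 carried H3K4me3, and of 12 fibroblast markers 5 did. Both counts are near the share of all genes with a control peak, 49.1%, so they do not tell a lens from a fibroblast identity. None of the 11 matched blood and endothelial markers had a peak in either list, and of the 10 matched neuron and glia markers 1 had. No marker gained or lost a peak.

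Away from protein-coding starts, the absent peak of highest fold enrichment, between genes on chromosome 7 (36019916 to 36020260), had 35 reads over 345 bp and Lrp3 as the nearest gene at 19.5 kb. The next 4, with 27 to 32 reads, lay at starts of other annotated transcripts, among them those nearest to Utp14a (32 reads) and Ralyl (28). None of the 5 overlapped a Pax6 peak, but few such peaks did. Away from protein-coding starts, 1 of 406 absent and 4 of 1079 kept control peaks overlapped one. The 5 KD peaks of highest fold enrichment without a control peak lay near Gpi1 (32 reads), Samd9l (33), Atf7ip (34), Fcgr4 (27) and Skint10 (27). The peak near Samd9l (chromosome 6, 3295017 to 3295763) lay at a distance of 39.2 kb and overlapped control peaks of Pol2, H3K4me2 and Pax6.

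By chromosome, the median change in rank within the whole lists, read only between chromosomes, ran from −6.25 on chromosome 8 to −0.18 on chromosome 17. Chromosome 8 also had the lowest median summit change, −0.07 against a range of −0.03 to 0.05 on the others. Input reads of the H3K4me1 islands, taken per kb and relative to all islands paired 1 to 1, were 0.20 lower in log2 on chromosome 8 in KD cells, the lowest value of any chromosome. The part of this difference in input in the change in rank was not tested. Promoter peaks were lost at 2.84% of marked genes on chromosome 8, 1.40% on chromosome 15 and 6.39% on chromosome 13.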

How the data were processed

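αTN4 chromatin was formaldehyde-crosslinked and H3K4me3 ChIP DNA was sequenced in 1 library each of control and Pax6 KD cells. Alignment by the authors was to mm9 (Bowtie), and peaks came from MACS2 with its defaults, less blacklisted regions, and H3K4me1 islands from SICER. The deposited MACS2 values are fold enrichment over background as a ratio, −log10 p and −log10 q, and a display score that was not used. The deposited SICER files hold read counts, of which the input counts were used per chromosome, and p-values and fold ratios that were not used. Whether H3K4me2 replicates were pooled before calling is not given in the sources used here. The number of sequenced reads is unknown from these files.

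A TSS peak overlapped 2 kb either side of a start of 51684 protein-coding transcripts (22342 genes, GENCODE, mm9). Peaks were shared at 1 bp of overlap and paired where each met 1 peak of the other list. Reads at each summit and its background were solved from fold and p (tolerance 0.001) and set relative to the median, a measure added after the data were seen and tested on simulated data. Counting intervals are at 95%. Differences in H3K4me2 are log2 of fold enrichment relative to the median, since its KD summit reads could not be solved. Members and gene lists were chosen with earlier results of these data known. Genes were named by fixed rules. These took the 15 lost and 15 gained genes of highest fold percentile, and the 10 widest and 10 narrowest TSS pairs above the median fold. They also took the 5 unshared peaks of highest fold elsewhere on each side and the 10 genes the study names. List genes were named where they lost or gained a peak or differed by 1.5-fold in covered length. The orders by summit reads were added later. Analyses used Python 3.11.15 with pandas 2.3.3, NumPy 2.4.6, SciPy 1.17.1 and matplotlib 3.10.9. RNA-seq was not analysed here, and input reads were used only as counted in the H3K4me1 islands. A few genes and sequences that these rules select are not reported here, though they count in the totals.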

Additional observations from a re-analysis of the deposited data

How the results depend on the processing

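The lost genes numbered 282 to 468 under promoter windows of 1 and 0.5 kb, a −log10 q of at least 5, a control list cut to the KD number of peaks, all annotated transcripts, and the requirement of no overlap with any KD peak. The gained genes numbered 49 to 76 under these, except that cutting the control list gave 97, which include all 53. The difference in kept share between TSS and other control peaks was 21.9 points when 50% of the control peak had to be covered and 15.9 when a KD peak within 1 kb counted. From the KD side it was 4.51 within 1 kb and 4.53 at a −log10 q of at least 5. The median log2 width ratio was −0.0534 for TSS pairs when peaks within 1 kb were merged first, and −0.0450 for TSS and −0.0424 for other pairs above the median fold. The median change in rank was −0.0495 for TSS and −0.270 for other pairs when ranks were taken among the paired peaks alone, a setting chosen after seeing the data. All other settings of these results kept their direction, with counts within 1.5 times the reported one and differences in share and medians inside its 95% interval. The shares of TSS and other peaks themselves were less stable, with 11 alternative values outside the reported 95% interval and 3 inside. When a KD peak within 1 kb counted, 97.0% of TSS and 81.1% of other control peaks were kept. No paired analysis was possible because each side has 1 library. With 1 library a side, no difference can be set against the spread between cultures, and the unequal background and the knockdown cannot be told apart at weak peaks.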
